A study of Mus musculus with 6 samples.

Results

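The genes of antigen presentation were examined in C1498, a mouse leukemia cell line on the C57BL/6J background, after PARP-1 inhibition. The members were the genes whose symbol begins with H2-, the prefix of the mouse major histocompatibility complex (MHC), together with 14 genes of peptide supply, chaperoning and MHC transcription outside that prefix. Of 19938 genes with a probe set of their own on the array, 43 were members, and each was read from the probe set with the highest mean when a gene had several. They comprised 21 class I genes, 9 class II genes, 9 genes of class I antigen processing and the regulators Ciita and Nlrc5. H2-K2 and H2-Ke6 carry the prefix but were counted in neither class. Counting H2-K2, a transcribed pseudogene, apart was a choice, since the pseudogenes H2-Bl, H2-Q5 and H2-T10 were counted in class I. RNA was measured on 3 arrays of cells given the PARP-1 inhibitor PJ34 at 20 μM for 48 h and on 3 arrays of cells given PBS for 48 h, with no other difference named in the labels. All 6 arrays come from the same cell line in culture at a single dose and time. The study's text speaks of independent experiments, while the labels do not say whether the replicates were separate cultures, so the p-values measure the spread between these samples, which by the labels alone may be technical.

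MHC class I molecules present peptides of the cell's own proteins to CD8 T cells. Their heavy chain pairs with B2m, and the peptides are cut by the proteasome, carried into the endoplasmic reticulum by the transporter Tap1/Tap2, trimmed by Erap1 and loaded with the help of Tapbp, Calr and Pdia3. Class II molecules present peptides from endosomes to CD4 T cells and are made mainly by dendritic cells, macrophages and B cells, with Cd74 as their chaperone. Ciita switches on class II genes, and Nlrc5 is its counterpart for class I genes. In mice the class I family also holds many non-classical members of the H2-Q, H2-T and H2-M regions, which present a narrow range of ligands or none.

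The values are log2 expression values, and a difference of 1 is a 2-fold change. Since no detection calls were used here, 4.42, the median of the mean values of the 35556 probe sets on the array, serves below as a mark of a dim probe set. It is no limit of detection, and 3 of 5 fibroblast markers lay above it too. C1498 is labelled as acute myeloid leukemia, yet only 3 of 12 myeloid markers lay above 4.42, and Mpo, Elane, Spi1, Csf1r and Csf3r lay below it in both groups. Fcgr1, an Fc receptor, was the bright one and rose (7.45 with PJ34 and 6.82 with PBS). Of 11 T and NK cell markers 4 lay above the mark, of which Cd3e (10.56 with PJ34 and 10.38 with PBS) and Cd3g (11.06 with PJ34 and 11.10 with PBS) were the brightest, while Cd247, Cd8a, Gzmb, Klrb1c and Ncr1 lay below it. Cd4 (4.45 with PJ34 and 3.83 with PBS) and Gzma (4.46 with PJ34 and 3.56 with PBS) were dim on average and rose. Zap70, which lay above the mark, was lower without overlap (7.17 with PJ34 and 7.43 with PBS) but did not pass the test used below. By that test 2 markers of the T and NK list were called higher and 0 lower, and 1 and 0 of the myeloid list. In a culture measured in bulk, fewer cells that express a gene and less RNA per cell cannot be told apart.

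Most of this system differed little between PJ34 and PBS, as did most of the array, and a single member passed the test. The non-classical class I gene H2-M3 fell, while none of 9 class II genes, none of 9 processing genes and neither regulator passed, and no member rose. At an adjusted p under 0.05 from limma, 1 of 43 members was called, all classes together, against 3.07% of the 23412 probe sets tested, so the members were called at a share close to that of the array as a whole. Limma's unadjusted p was under 0.05 for 4 members (16.7% of all probe sets), namely H2-M3, Tapbp, Erap1 and H2-Q4. The 3 arrays of each group did not overlap for 6 members (23.5% of all probe sets), of which 3 were higher (12.6%) and 3 lower (10.9%). For 42 of the 43 members the 95% confidence interval excluded a 1.5-fold change in either direction, H2-M3 being the exception. The same held for 22635 of the 23412 probe sets tested, so narrow intervals were common across the array. For all 43 members the interval excluded a 2-fold change. Of the members, 22 lay below the mark of 4.42, where background may hide part of a change.

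**Figure D1:**
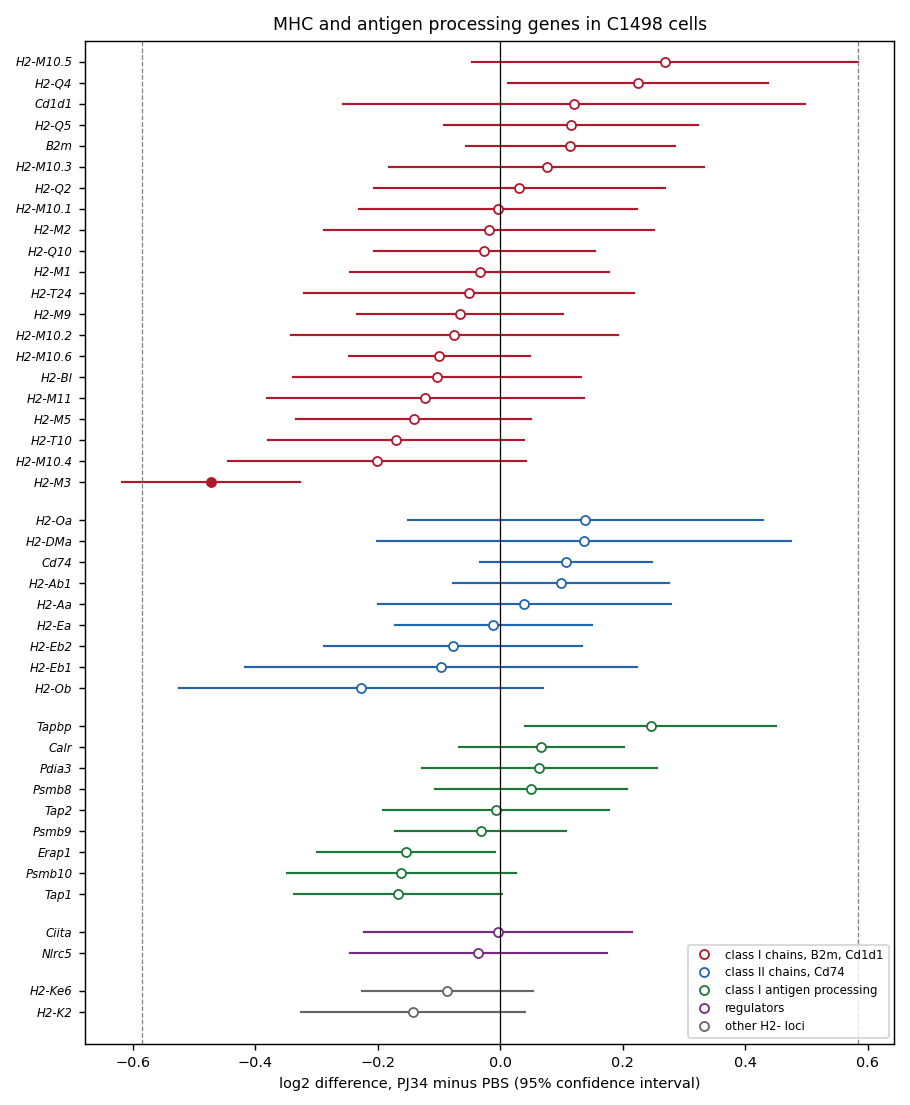
Log2 difference (PJ34 minus PBS, horizontal axis) of the 43 members, by class, with 95% confidence intervals from limma. The filled point, H2-M3 at -0.47, passed the test, open points did not, and dashed lines mark a 1.5-fold change, which only the interval of H2-M3 crosses.

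H2-M3 presents peptides that begin with N-formyl methionine, from bacteria or mitochondria, to T cells. Its values were 7.99, 7.86 and 7.89 on the PJ34 arrays, against 8.36, 8.42 and 8.38 on the PBS arrays. The groups lay clearly apart, with every PJ34 value below every PBS value. The mean was 7.91 ± 0.065 with PJ34 and 8.39 ± 0.029 with PBS (SD, n = 3 each), a log2 difference of -0.47 (SE 0.064, adjusted p = 0.00824 from limma) or a ratio of 0.721 (95% confidence interval 0.651 to 0.797). The exact two-sided permutation test of 3 against 3 arrays gave p = 0.1, the smallest it allows. Whichever of the 6 arrays was dropped, H2-M3 still passed (adjusted p = 0.0224 to 0.0461 from limma). With the methods' t-test it lay at the threshold (adjusted p = 0.050).

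A class I-like gene outside the MHC also fell. Mr1, which presents vitamin B metabolites to MAIT cells, had values of 6.61, 6.61 and 6.64 with PJ34, against 7.08, 7.18 and 7.20 with PBS. The PJ34 values were nearly equal and all lay below the PBS values. Its log2 difference was -0.53 (SE 0.063, adjusted p = 0.00543 from limma), and it passed under every alternative run. Mr1 was not chosen by the H2- prefix but stood in a list of 50 other genes of antigen presentation, described below.

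**Figure D2:**
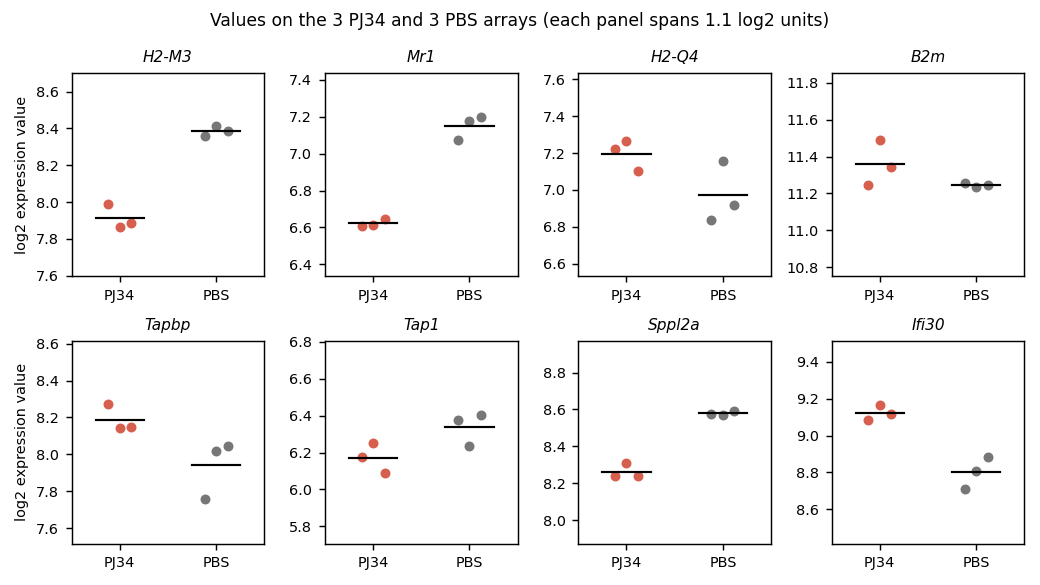
Log2 expression value (vertical axis, 1.1 units in each panel) of 8 genes on each of the 3 PJ34 (red) and 3 PBS (grey) arrays, with lines at the group means. H2-M3, Mr1 and Sppl2a lie lower and Ifi30 higher with PJ34 with no overlap, whereas the groups overlap for H2-Q4, B2m and Tap1.

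Promoters of MHC genes share a module of short boxes, among them an X2 box, which binds CREB family factors, and a Y box, which binds NF-Y, and through it Nlrc5 or Ciita acts. The promoters of H2-M3 and Mr1, which fell, are printed here with those of B2m and the class II chain H2-Aa as examples of the module in each class. The sequences run from 250 bases before to 50 bases after the start of the gene (RefSeq, GRCm38.p6), and capitals mark CCAAT (the Y box), TGACG (the core of the X2 box) and the core of the interferon-stimulated response element (a pair of GAAA repeats with 2 bases between them), each on either strand, overlapping matches counted.
H2-M3 (chr17:37269984-37270283, plus strand): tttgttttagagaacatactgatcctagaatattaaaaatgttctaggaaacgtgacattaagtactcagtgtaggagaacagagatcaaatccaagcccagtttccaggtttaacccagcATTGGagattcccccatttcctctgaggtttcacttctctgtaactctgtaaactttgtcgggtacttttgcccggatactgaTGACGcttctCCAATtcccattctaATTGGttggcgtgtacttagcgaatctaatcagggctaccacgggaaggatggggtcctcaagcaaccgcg
Mr1 (chr1:155146765-155147064, minus strand): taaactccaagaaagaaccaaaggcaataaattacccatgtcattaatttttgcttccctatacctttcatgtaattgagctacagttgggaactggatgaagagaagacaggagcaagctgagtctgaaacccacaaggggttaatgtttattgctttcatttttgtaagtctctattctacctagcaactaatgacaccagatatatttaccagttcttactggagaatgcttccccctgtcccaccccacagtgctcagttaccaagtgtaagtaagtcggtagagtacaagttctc
B2m (chr2:122147437-122147736, plus strand): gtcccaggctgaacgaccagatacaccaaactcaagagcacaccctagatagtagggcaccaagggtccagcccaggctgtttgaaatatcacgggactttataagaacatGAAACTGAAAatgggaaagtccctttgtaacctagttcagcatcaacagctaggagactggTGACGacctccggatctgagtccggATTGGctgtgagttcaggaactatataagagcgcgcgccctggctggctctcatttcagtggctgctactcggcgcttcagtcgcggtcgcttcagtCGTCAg
H2-Aa (chr17:34287774-34288073, minus strand): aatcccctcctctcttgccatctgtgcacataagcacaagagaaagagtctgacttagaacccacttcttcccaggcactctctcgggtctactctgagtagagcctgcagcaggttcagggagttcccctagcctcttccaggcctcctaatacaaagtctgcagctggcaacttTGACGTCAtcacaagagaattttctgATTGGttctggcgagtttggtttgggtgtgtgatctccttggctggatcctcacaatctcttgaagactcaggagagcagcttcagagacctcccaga
The H2-M3 promoter held TGACG 46 bases before the start and CCAAT at 129, 36 and 21 bases before it. B2m held TGACG at 78 bases, CCAAT at 53 bases and the interferon element core at 139 bases before the start, and TGACG again 45 bases into the gene. In H2-Aa the core read the same on both strands, with TGACG at 74 and 71 bases, and CCAAT lay 48 bases before the start. Mr1 held none of these letters in this window.

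Promoter sequences of 31 of the 43 members were read, 33 in all, since H2-M9 and H2-DMa entered with more than a single sequence. Those of the class II members Cd74, H2-Ab1 and H2-Ea were not among them. Nor were those of Cd1d1, H2-Bl, H2-K2, H2-Q5, H2-T10, H2-T24, Tap2, Ciita and Nlrc5. The shares below count promoters, not genes. CCAAT occurred in 27 of the 33, against 37.4% of all 32841 promoters, and CCAAT together with TGACG in 12, against 7.73%. In class I promoters, CCAAT occurred in 15 of 17 and CCAAT with TGACG in 8, and in class II promoters in 6 of 7 and 1 of 7. The interferon element core occurred in 2 of the 33, B2m and Erap1, against 3.44% of all promoters. Many of these genes are close copies of each other, so their promoters are not independent, and a match of letters is not a bound site.

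Among class I genes the remaining members did not pass. B2m, the light chain that all class I molecules need, had values of 11.25, 11.49 and 11.34 with PJ34, against 11.26, 11.23 and 11.25 with PBS. The groups overlapped, PJ34 replicate 2 being the highest. Its log2 difference was 0.11 (95% confidence interval -0.06 to 0.29, adjusted p = 0.516 from limma). Over the 21 class I genes the median log2 difference was -0.033, beside 0.0029 over all probe sets tested, and 7 were positive and 14 negative. Only 8 of the 21 lay above the mark of 4.42, so for most of the class the signal was dim.

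Of the 4 H2-Q genes, 3 had positive differences and none passed. H2-Q4, a non-classical heavy chain, had 7.22, 7.26 and 7.10 with PJ34, against 6.84, 7.16 and 6.92 with PBS. Its groups overlapped through PBS replicate 2, and the log2 difference of 0.22 (SE 0.093) did not pass (adjusted p = 0.269 from limma). H2-Q2, H2-Q5 and H2-Q10 lay between -0.03 and 0.12. In the H2-T region H2-T10, which RefSeq lists as a transcribed pseudogene, had 4.91, 5.10 and 5.18 with PJ34, against 5.30, 5.30 and 5.10 with PBS, with overlap and a log2 difference of -0.17 (adjusted p = 0.412 from limma). H2-T24 and H2-Bl had -0.05 and -0.10. The CD1 molecule Cd1d1, which presents lipids to NKT cells, was dim and variable, at 3.45, 3.68 and 3.87 with PJ34, against 3.46, 3.91 and 3.27 with PBS, and its interval was the widest of all members (-0.26 to 0.50).

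No other H2-M gene passed. Of the 12 H2-M genes, the other 11 had log2 differences from -0.20 to 0.27 and a median of -0.066, and 9 of the 11 lay below the mark of 4.42. H2-M10.5, dim in both groups, had 2.32, 2.72 and 2.85 with PJ34, against 2.18, 2.42 and 2.48 with PBS, which overlap (log2 difference 0.27, adjusted p = 0.383 from limma). H2-M10.4 had 4.13, 3.73 and 4.01 with PJ34, against 4.13, 4.26 and 4.08 with PBS, which likewise touch (-0.20, adjusted p = 0.400 from limma). The H2-M1, H2-M9 and H2-M10 genes are expressed mainly in vomeronasal neurons. Whether the difference of H2-M3 exceeds theirs was not tested.

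The classical heavy chains H2-K1 and H2-D1 had no probe set of their own. They share 2 probe sets, which the platform table assigns jointly to H2-K1, H2-D1 and LOC547349, so these are not members and the gene behind each signal is not known. In the first listed for H2-K1, the values were 9.68, 9.78 and 9.75 with PJ34, against 9.46, 9.47 and 9.60 with PBS, and the groups did not overlap (log2 difference 0.22, SE 0.069, adjusted p = 0.138 from limma). In the one listed first for H2-D1 they were 9.54, 9.39 and 9.49 with PJ34, against 9.34, 9.46 and 9.44 with PBS, and the groups overlapped (log2 difference 0.06, adjusted p = 0.734 from limma). Classical class I signal was thus bright in both groups, with a difference that passed in neither probe set.

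In all, 8 probe sets were shared among H2- genes and none passed. The lowest p belonged to the probe set shared by H2-T9, H2-T22 and H2-T10, genes that include ligands of gamma delta T cells. It read 6.95, 6.92 and 6.87 with PJ34, against 7.06, 7.28 and 7.19 with PBS, with no overlap (log2 difference -0.26, SE 0.074, adjusted p = 0.106 from limma). The probe set of H2-T23, the mouse counterpart of HLA-E and a ligand of NK receptors, is shared with H2-T-ps and read 7.52, 7.50 and 7.50 with PJ34, against 7.63, 7.82 and 7.62 with PBS, also without overlap (-0.18, adjusted p = 0.246 from limma). Of the 8, 4 lay above and 4 below no difference. With a trend and robust eBayes, or without dim probe sets, the probe set listed first for H2-K1 passed upward (adjusted p = 0.0156 and 0.0454 from limma) and that of H2-T9, H2-T22 and H2-T10 downward (adjusted p = 0.0304 and 0.0342 from limma).

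**Figure D3:**
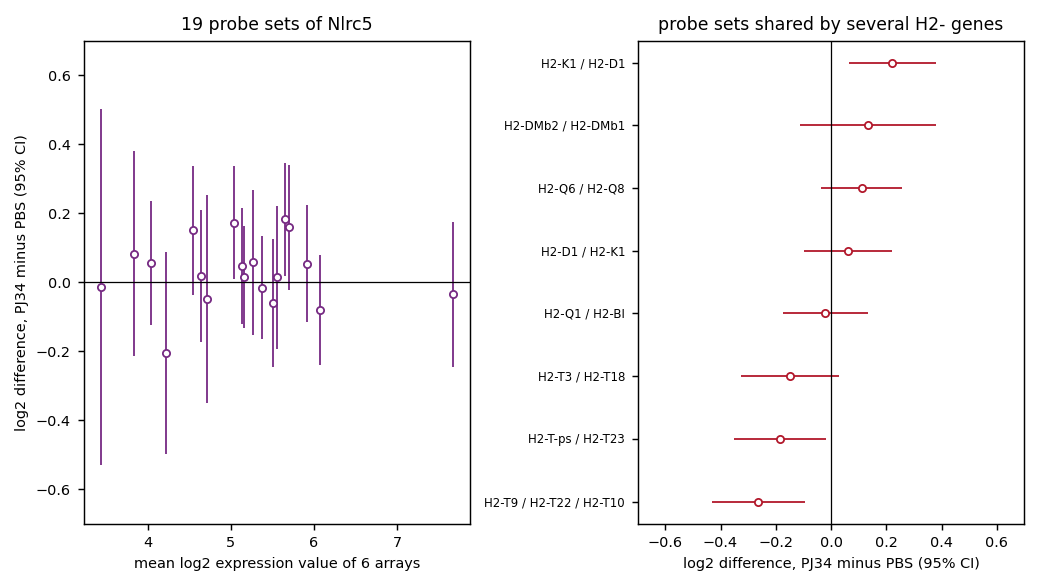
Left, log2 difference (PJ34 minus PBS, vertical axis) of each of the 19 probe sets of Nlrc5 against its mean log2 expression value. Right, the log2 difference (horizontal axis) of the 8 probe sets shared by several H2- genes (LOC547349 is left out of the labels), from 0.22 to -0.26. Bars are 95% confidence intervals, and no point passed the test.

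The processing genes were measured well above the mark, all 9 of them, and none passed. Tapbp, which encodes tapasin, the bridge between the peptide transporter and empty class I molecules, had the largest difference with all arrays in the fit. Its values were 8.27, 8.14 and 8.15 with PJ34, against 7.76, 8.02 and 8.05 with PBS. The groups did not overlap, though PBS replicate 1 lay well below the other PBS arrays (log2 difference 0.25, SE 0.090, adjusted p = 0.208 from limma). Without PBS replicate 1 the difference of Tapbp was 0.15, smaller in size than those of Psmb10 (-0.17) and Erap1 (-0.16) in the same fit. Erap1, which trims peptides to length, had 7.07, 7.15 and 7.01 with PJ34, against 7.22, 7.22 and 7.23 with PBS, again without overlap (-0.15, SE 0.064, adjusted p = 0.266 from limma). Calr, a lectin chaperone of the loading complex, was higher on every PJ34 array by a small margin (0.07, adjusted p = 0.641 from limma), and Pdia3, its thiol partner, had 0.06.

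Neither transporter subunit passed. Tap1 had 6.18, 6.25 and 6.09 with PJ34, against 6.38, 6.24 and 6.40 with PBS, which overlap through PBS replicate 2 (log2 difference -0.17, adjusted p = 0.306 from limma). Tap2 had 6.54, 6.42 and 6.45 with PJ34, against 6.33, 6.53 and 6.58 with PBS, which overlap widely (-0.0076, 95% confidence interval -0.19 to 0.18). Whether their differences are unequal was not tested.

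The immunoproteasome subunits, which replace the constitutive catalytic subunits and alter which peptides are cut, stayed within a narrow range. Psmb8 had 7.85, 7.72 and 7.73 with PJ34, against 7.65, 7.72 and 7.78 with PBS (log2 difference 0.05, 95% confidence interval -0.11 to 0.21). Psmb9 had 6.63, 6.54 and 6.57 with PJ34, against 6.60, 6.59 and 6.64 with PBS (-0.03, interval -0.17 to 0.11). Psmb10 had 7.37, 7.11 and 7.14 with PJ34, against 7.35, 7.33 and 7.42 with PBS (-0.16, interval -0.35 to 0.03). The groups overlapped for all 3 subunits. Over the 9 processing genes the median log2 difference was -0.0076.

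Class II genes were dim, and none passed the test. Of the 9, 8 lay below the mark of 4.42, and H2-Eb1 alone lay above it. H2-Ea, which RefSeq lists as a transcribed pseudogene, read 2.68, 2.87 and 2.85 with PJ34, against 2.83, 2.79 and 2.82 with PBS. The alpha chain H2-Aa read 1.64, 1.70 and 1.87 with PJ34, against 1.69, 1.52 and 1.89 with PBS (log2 difference 0.04, 95% confidence interval -0.20 to 0.28). Its partner H2-Ab1 read 3.80, 3.57 and 3.77 with PJ34, against 3.66, 3.62 and 3.57 with PBS (0.10, interval -0.08 to 0.28). In neither chain were the groups apart. H2-Eb1, a beta chain, read 4.57, 4.57 and 5.12 with PJ34, against 4.92, 4.82 and 4.82 with PBS, and PJ34 replicate 3 lay above all others (-0.10, interval -0.42 to 0.22). That array decided the value of H2-Eb1, which was -0.28 without PJ34 replicate 3 (adjusted p = 0.137 from limma), -0.0038 without PJ34 replicate 1, -0.0049 without PJ34 replicate 2 and -0.062 without PBS replicate 1.

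Cd74, the invariant chain, was the 1 class II gene whose groups did not overlap, at 3.48, 3.48 and 3.46 with PJ34, against 3.33, 3.34 and 3.43 with PBS. The shift was small and did not pass (log2 difference 0.11, SE 0.062, adjusted p = 0.447 from limma). H2-Ob, a chain of the peptide-exchange modulator H2-O, read 3.10, 3.31 and 3.61 with PJ34, against 3.68, 3.39 and 3.62 with PBS, with overlap (-0.23, adjusted p = 0.446 from limma), while its partner H2-Oa had 0.14. H2-DMa, of the peptide exchange factor H2-DM, also had 0.14. The median over the 9 class II genes was 0.040, and limma's unadjusted p was under 0.05 for none of them and the methods' t-test passed none after adjustment. Background makes up an unknown share of signals this dim, so a change in a low level of class II RNA may not be visible here.

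**Figure D4:**
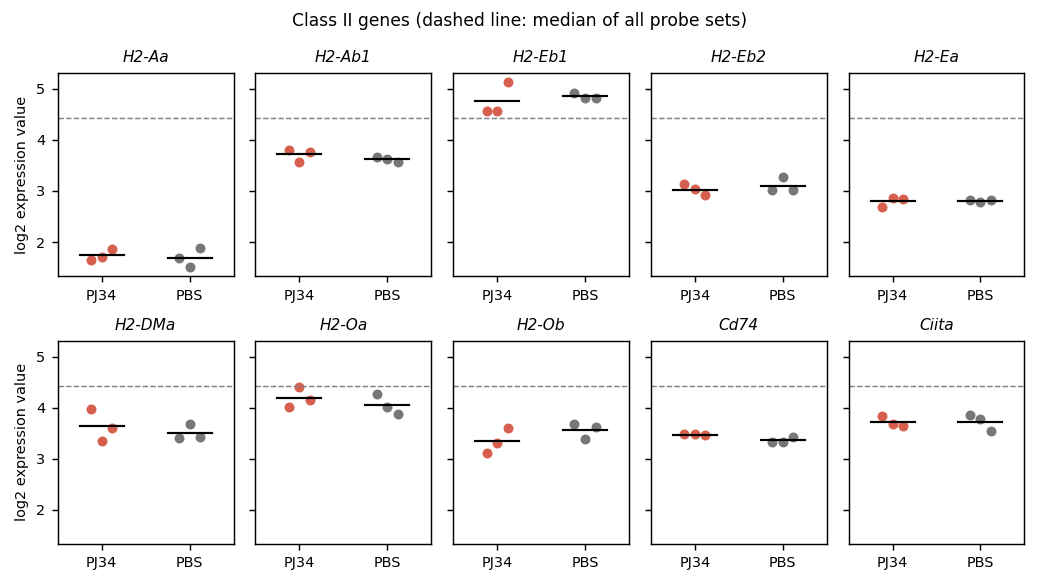
Log2 expression value (vertical axis, shared) of 9 class II genes and their regulator Ciita on the 3 PJ34 (red) and 3 PBS (grey) arrays, with lines at the group means and a dashed line at 4.42, the median of all probe sets. H2-Eb1 alone lies above the line, and no gene passed the test.

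Markers of the cells that usually carry class II were mostly dim too. Of 5 B cell markers none lay above the mark, of 7 dendritic cell markers 2 did and of 6 macrophage markers 1 did. The mean over the macrophage list was 3.82 to 3.84 on the PJ34 arrays, against 3.65 to 3.75 on the PBS arrays, Cd68 being the marker that rose (log2 difference 0.51). Over the dendritic list it was 4.23 to 4.41 with PJ34, against 4.20 to 4.32 with PBS, where the chemokine receptor Ccr7 rose (0.52). Over the B cell list it was 3.32 to 3.44 with PJ34, against 3.29 to 3.39 with PBS. Apart from Cd68 and Ccr7, the markers of these lists went both ways without passing. Examples are Batf3 (0.17) and Zbtb46 (-0.18) of the dendritic list, and Adgre1 (0.14) and Marco (-0.12) of the macrophage list. The part of such cells in the class II values was not tested.

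The transcriptional regulators did not pass. Ciita read 3.84, 3.68 and 3.64 with PJ34, against 3.86, 3.77 and 3.54 with PBS, below the mark on every array (log2 difference -0.0037, 95% confidence interval -0.22 to 0.22). Nlrc5 has 19 probe sets of its own. The brightest read 7.74, 7.46 and 7.76 with PJ34, against 7.76, 7.67 and 7.63 with PBS, which overlap (-0.04, adjusted p = 0.900 from limma). Over the 19 the median was 0.017, 12 were positive and 7 negative, and the adjusted p from limma was at least 0.242 for each. The mean of the 19 gave 0.029 in place of -0.036, so Nlrc5 had no settled direction. Of the 2 H2- loci counted in neither class, H2-Ke6, which encodes a steroid dehydrogenase, had -0.09 and the pseudogene H2-K2 had -0.14. Neither passed.

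Of 50 other genes of antigen presentation, 45 were measured and 4 passed, 2 higher (background 1.72%) and 2 lower (background 1.35%). Mr1, described above, fell. The protease Sppl2a, which clears the remnant of Cd74 from endosomal membranes, also fell, at 8.24, 8.31 and 8.24 with PJ34, against 8.58, 8.57 and 8.59 with PBS (log2 difference -0.32, SE 0.059, adjusted p = 0.0289 from limma). Its groups lay clearly apart. Ifi30, the thiol reductase GILT that unfolds antigens in lysosomes, rose, at 9.08, 9.17 and 9.12 with PJ34, against 8.71, 8.81 and 8.89 with PBS (0.32, SE 0.069, adjusted p = 0.0472 from limma). Nfyc, a subunit of the factor NF-Y that binds the Y box, rose, at 8.906, 9.005 and 8.937 with PJ34, against 8.603, 8.522 and 8.682 with PBS (0.35, SE 0.068, adjusted p = 0.035 from limma).

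These calls rested on the scaling and on single arrays to different degrees. With each array centred on its median, 0 genes of this list were called higher and 3 lower, in place of 2 and 2, beside 333 higher and 366 lower of all 23412 probe sets, in place of 403 and 315, and Ifi30 and Nfyc did not pass (adjusted p = 0.0776 and 0.0520 from limma). In the 6 fits that left out 1 array, Mr1 passed in 6, Sppl2a in 1, without PJ34 replicate 2, and Ifi30 and Nfyc in none. A dimmer probe set of Nfyc had a log2 difference of 0.22 and did not pass (adjusted p = 0.320 from limma), and the NF-Y subunits Nfya and Nfyb had -0.10 and -0.16. The RFX subunits, which bind the neighbouring X box, were Rfx5, Rfxank and Rfxap, with 0.02, -0.17 and 0.07. Over the 45 genes the median log2 difference was -0.010. Tapbpl (-0.01), Canx (0.03), the proteasome activators Psme1 (-0.02) and Psme2 (0.06) and the cathepsins Ctss (0.07) and Ctsd (0.04) were among those that did not pass.

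**Figure D5:**
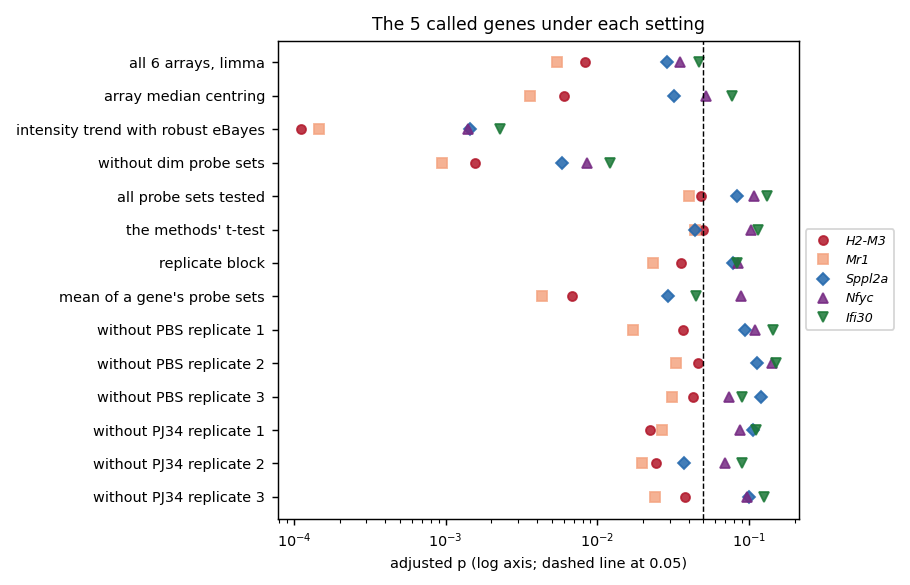
Adjusted p (horizontal log axis) of the 5 called genes under each setting of the analysis (rows), with a dashed line at 0.05. Mr1 lies left of the line throughout and H2-M3 does so except under the methods' t-test, where it sits at 0.050, whereas Ifi30 and Nfyc lie right of it whenever an array was left out.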

How the data were processed

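RNA of C1498 cells was hybridised to Affymetrix Mouse Gene 1.0 ST arrays. Per the submitters' processing notes, the authors used Affymetrix Expression Console 1.3.1 with RMA and deposited log2 expression values per probe set, after background correction and quantile normalization. Build and annotation of that step are not given in the sources used here. The values were used as deposited, without further scaling. Arrays of a group correlated at 0.992 to 0.995, and arrays of different groups at 0.992 to 0.994. Arrays were grouped by the sample titles.

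By the platform's annotation, 21789 probe sets carry 1 gene symbol and 1621 carry several. These and 2 more that the paper's array tables list, 23412 in all, were compared, PJ34 minus PBS, with limma 3.58.1 in R 4.3.3 (moderated test, two-sided), with Benjamini-Hochberg adjustment over all of them. The fit was checked on simulated data, with independent noise and planted changes larger than that of any member. Members were read from probe sets with 1 symbol, by the brightest. Symbols of all members match RefSeq. No set test was run. The number of arrays limits the precision.

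The members and lists were chosen with earlier results of these data known. Values on each array are given for members past the threshold, for H2-Aa, H2-Ab1, H2-Eb1, Cd74, B2m, Ciita, Nlrc5, Tap1, Tap2, Tapbp, Psmb8, Psmb9 and Psmb10, for the 5 largest other differences and for the called genes of the wider list; H2-Ea, Erap1, Cd1d1 and the shared probe sets were added after their values were seen. Alternatives were array median centring, an intensity trend with robust eBayes, leaving out dim probe sets, all 35556 probe sets, the methods' t-test, a replicate block, the mean of a gene's probe sets, and leaving out each array.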

Additional observations from a re-analysis of the deposited data

How the results depend on the processing

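Of the 43 members, 42 passed in no setting that tested them, and leaving out dim probe sets kept only 21 of the 43. H2-M3 passed in all but the methods' t-test (log2 difference -0.47, adjusted p = 0.050), where class I calls fell to 0 from the 1 of the limma fit. The counts of called class II and processing genes were 0 in every setting, though without dim probe sets only 1 class II gene was tested. The 718 of 23412 probe sets called (403 higher, 315 lower) became 699 with array median centring (333 higher, 366 lower). With an intensity trend and robust eBayes they were 1930, and with the methods' t-test 143. They were 1669 of the 12698 left without dim probe sets, and 188 of 35556 with all probe sets tested. Without PJ34 replicate 2 they were 603, and 231 to 324 when any of the other 5 arrays was left out. Called genes of the wider list, 4 of 45 with limma, were 8 of 45 with the trend and 8 of the 35 left without dim probe sets. In both, Ctsb, Ifngr1, Ifngr2 and Sec61a1 were added. The list had 1 called gene with all probe sets tested, 2 with the methods' t-test and 1 to 2 when 1 array was left out. The mean of all its probe sets turned Nlrc5 to 0.029.

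The labels number the replicates alike in both groups. Deviations of same-numbered arrays correlated at -0.013, 0.130 and -0.0092, and not every array correlated best with its own number, so the arrays share only a number. With the replicate block 365 probe sets and 1 gene of the wider list, Mr1, were called, and H2-M3 passed (adjusted p = 0.0355 from limma).

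Among members that did not pass, 17 changed sign when 1 array was left out. Their log2 differences ran from -0.0173 to 0.304 for Cd1d1, -0.0968 to 0.0653 for Ciita, -0.0507 to 0.136 for H2-Aa, -0.0283 to 0.283 for H2-DMa, -0.0462 to 0.0483 for H2-Ea, -0.129 to 0.00842 for H2-Eb2, -0.114 to 0.0279 for H2-M1, -0.0748 to 0.0930 for H2-M10.1, -0.214 to 0.0273 for H2-M10.2, -0.0641 to 0.162 for H2-M10.3, -0.116 to 0.0800 for H2-M2, -0.0949 to 0.0279 for H2-Q10, -0.0420 to 0.118 for H2-Q2, -0.192 to 0.0613 for H2-T24, -0.0904 to 0.0614 for Nlrc5, -0.00957 to 0.139 for Pdia3 and -0.0812 to 0.0424 for Tap2.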

Other observations

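The receptor for interferon gamma, the cytokine that induces both MHC classes, lay lower with PJ34 without passing the test. Ifngr1, its ligand-binding chain, read 8.06, 8.12 and 7.97 with PJ34, against 8.38, 8.39 and 8.30 with PBS (log2 difference -0.31, SE 0.068, adjusted p = 0.0523 from limma). Ifngr2, the signalling chain, read 8.59, 8.44 and 8.49 with PJ34, against 8.77, 8.70 and 8.75 with PBS (-0.23, SE 0.065, adjusted p = 0.110 from limma). For each chain all PJ34 values lay below all PBS values, which held for 6 of the 45 genes of the list and 10.9% of all probe sets. Under the 13 alternatives, Ifngr1 had an adjusted p of 0.00443 to 0.180 from limma or the methods' t-test and passed in 4. Ifngr2 had one of 0.0164 to 0.287 from the same tests and passed in 2. Both genes stood in the list of other antigen presentation genes and were singled out after their values were seen.

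The factors downstream gave small values. Irf1, which interferon gamma induces and which acts on class I and Tap1 promoters, had -0.08 (adjusted p = 0.695 from limma), and Irf2 had 0.15 (adjusted p = 0.275 from limma). The constitutive proteasome subunits that Psmb8, Psmb9 and Psmb10 replace had -0.17 (Psmb5), 0.05 (Psmb6) and 0.02 (Psmb7), and none passed.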
